A study of Homo sapiens with 12 samples.

Results

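The replication-dependent histone genes were taken as the protein-coding genes of chromosomes 1 and 6 whose symbols are H1-1 to H1-6 or begin with H2AC, H2BC, H3C or H4C followed by a number. This gave 65 of 20098 protein-coding genes of the annotation (GENCODE v44 lifted to GRCh37, the build named hg19 in the lists). Of these, 52 lie on chromosome 6 and 13 on chromosome 1, and 2 of them, H4C2 and H2AC18, stand in the annotation under the older symbols HIST1H4B and HIST2H2AA3. By class, 6 encode linker histone H1, 17 encode H2A, 16 encode H2B, 13 encode H3 and 13 encode H4. They form 5 clusters. The largest, chr6:25723625-26285866, holds 31 of them, chr6:27775257-27861669 holds 16, chr1:149754245-149859515 holds 11, chr6:27093676-27115341 holds 5 and chr1:228622478-228650805 holds 2.

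These genes supply the bulk of the histone protein that packages newly copied DNA, and their transcription rises as cells enter S phase. Most are short and without introns, and their mRNAs end in a stem-loop in place of a poly(A) tail. Their promoters are known for TATA boxes and CCAAT boxes, and those of H2A and H2B genes also for an octamer bound by OCT1 (POU2F1). H2A and H2B genes often stand head to head and share the DNA between their starts. STAT3 is a transcription factor that binds TTCNNNGAA sites, and BCL9 is a co-activator best known as a partner of beta-catenin.

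The libraries are ChIP-exo, in which an exonuclease trims immunoprecipitated DNA up to the crosslinked protein, so that tags on both strands pair up on either side of it as a peak pair. The cells are DCIS.COM, an established human breast cancer line that models basal ductal carcinoma in situ. Knockdown cells carried a PLKO.1 lentiviral BCL9 shRNA, and control cells a PLKO.1 vector with a control sequence (labelled Non-scrambled control). Phosphoserine STAT3 (pSTAT3) was precipitated in 2 knockdown and 3 control libraries, BCL9 in 2 knockdown and 3 control libraries, and CTCF, an insulator protein, in 1 control library. All replicates came from cultures of 1 line, so p-values measure the spread between libraries of that line. In the comparison of antibodies the knockdown and control libraries are pooled, so that spread also holds their difference. The IgG library was not analysed here, and BCL9 protein cannot be measured from peak lists.

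The 11 lists held 415624 and 493174 peak pairs in the knockdown pSTAT3 libraries and 98665 to 374089 in the control pSTAT3 libraries. They held 95586 and 336493 in the knockdown BCL9 libraries, 24728 to 148755 in the control BCL9 libraries and 457119 in the CTCF library. The number of listed peak pairs is not a sequencing depth, which is unknown here. The shares of genes with a peak pair move with it, so levels are given per 100000 listed peak pairs, against the flanks of the same genes, or in lists of equal length. As a check of the cell type, 9 basal epithelial marker genes had a peak pair within 1 kb of the transcription start site (TSS) in 77.8% ± 13.6 (SD, n = 5 libraries) of cases with pSTAT3 and 53.3% ± 18.3 with BCL9, among them the keratin genes KRT5 and KRT17 in all 10 libraries. Of the same list, EPCAM had a peak pair in 5 of the 10 libraries, and TP63 and CDH1 in 1 each. For 5 markers of blood and endothelium the shares were 8% ± 17.9 and 0%, and for 5 of muscle, liver and neuron 16% ± 8.94 and 4% ± 8.94.

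The promoters of members that led the counts, and of members without any peak pair, are shown because the classes differ in the motifs they hold. Each is the 250 bases upstream of the start on the strand of the gene, from RefSeq (promoter table of GRCh38.p14, placed on GRCh37 by its sequence). Capitals mark a CCAAT box, spelled with those 5 letters, or a TATA box, which was searched as TATAAA. They also mark an octamer, which was searched as ATTTGCAT, and a cyclic AMP response element (CRE), for which the letters searched were TGACGTCA, all on either strand. H4C4 and H4C5 are H4 genes, H2AC21 and H2AC7 are H2A genes, and H2BC1 and H1-6 are histone genes expressed in testis.
H4C4, chr6:26189341-26189590, minus strand: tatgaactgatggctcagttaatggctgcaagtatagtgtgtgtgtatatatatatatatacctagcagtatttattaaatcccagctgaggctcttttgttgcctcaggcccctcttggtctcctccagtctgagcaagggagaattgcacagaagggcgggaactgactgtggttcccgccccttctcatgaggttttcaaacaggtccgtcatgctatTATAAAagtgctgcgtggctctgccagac
H4C5, chr6:26204588-26204837, plus strand: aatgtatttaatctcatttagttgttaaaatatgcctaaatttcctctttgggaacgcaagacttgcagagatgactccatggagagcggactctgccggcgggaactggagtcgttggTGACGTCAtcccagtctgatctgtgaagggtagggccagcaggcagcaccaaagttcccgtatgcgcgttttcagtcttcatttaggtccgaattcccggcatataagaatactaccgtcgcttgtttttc
H2AC21, chr1:149859516-149859765, minus strand: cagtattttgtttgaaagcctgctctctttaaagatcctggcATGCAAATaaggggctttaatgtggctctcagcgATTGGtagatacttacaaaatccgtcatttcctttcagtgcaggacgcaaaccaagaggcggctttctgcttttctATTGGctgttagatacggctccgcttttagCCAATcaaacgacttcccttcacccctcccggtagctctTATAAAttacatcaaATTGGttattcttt
H2AC7, chr6:26199522-26199771, minus strand: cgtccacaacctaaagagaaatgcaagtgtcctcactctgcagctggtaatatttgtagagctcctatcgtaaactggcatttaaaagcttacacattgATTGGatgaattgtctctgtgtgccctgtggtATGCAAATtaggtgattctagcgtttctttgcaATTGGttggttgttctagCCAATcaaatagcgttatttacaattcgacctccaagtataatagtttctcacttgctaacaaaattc
H2BC1, chr6:25726755-25727004, plus strand: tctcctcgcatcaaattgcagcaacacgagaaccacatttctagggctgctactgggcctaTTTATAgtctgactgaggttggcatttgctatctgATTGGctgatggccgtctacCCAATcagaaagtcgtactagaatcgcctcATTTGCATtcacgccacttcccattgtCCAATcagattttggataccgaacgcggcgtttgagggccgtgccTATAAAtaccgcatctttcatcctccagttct
H1-6, chr6:26108364-26108613, minus strand: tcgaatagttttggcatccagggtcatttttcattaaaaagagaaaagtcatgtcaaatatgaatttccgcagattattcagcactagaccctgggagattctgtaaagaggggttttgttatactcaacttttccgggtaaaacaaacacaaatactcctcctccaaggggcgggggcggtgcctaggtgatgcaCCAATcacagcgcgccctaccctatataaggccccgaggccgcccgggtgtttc

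Of the 65 genes, 60 had an entry in that table, whose windows of 300 bases reach 50 bases past the start. A CCAAT box stood in 51 of the 60 windows (85%), against 34.6% of 34961 promoters of all genes. It was in all 6 H1, 16 H2A, 16 H2B and 11 H3 windows and in 2 of 11 H4 windows. The TATA box stood in 40 windows (66.7%, against 11.5% of all promoters) and the CRE in 9 (15%, against 1.85%). The octamer stood in 24 (40%, against 1.77%), of which 11 were H2A, 12 H2B and 1 an H3 window. The H3 window with the octamer is that of H3C4, which lies -2007 bp from the annotated start and is identical to the H2AC7 window, so an H2A promoter is counted there again. The H2BC6 window lies 11702 bp from the annotated start. In the 58 windows within 1 kb of the annotated start the octamer stood in 11 of 16 H2A, 11 of 15 H2B and 0 of 10 H3 windows, and the CCAAT box in 49. The windows of H4C14 and H4C15 are also identical. H2BC1, without a peak pair in any library, holds the same CCAAT, TATA and octamer letters as H2AC21, which had peak pairs in every pSTAT3 and BCL9 library.

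Sites of 4 other factors were rare in these promoters. An AP-1 site (TGANTCA) was found in H3C8 alone (1.67% of the 60, against 7.68% of all promoters), and a STAT site (TTCNNNGAA) in H1-3 alone (1.67%, against 7.66%). An E2F site (TTTCCCGC) was found in H4C7 alone (1.67%, against 1.64%), and a CTCF core motif in H2AC21 alone (1.67%, against 4.63%). Both strands were searched, and a match or its absence says only what the letters of the window are.

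How often a histone gene had a peak pair was read within 1 kb of the annotated gene. The shares were 80% and 76.9% in the knockdown pSTAT3 libraries, against 35.4%, 18.5% and 67.7% in the control pSTAT3 libraries. They were 69.2% and 89.2% in the knockdown BCL9 libraries, against 41.5%, 36.9% and 80% in the control BCL9 libraries, and 72.3% in the CTCF library (95% Wilson interval 60.4 to 81.7%). Both knockdown pSTAT3 libraries lay above all controls, as did the lengths of their lists, and the BCL9 groups overlapped. Averaged over an antibody's 5 libraries, histone genes had a peak pair in 55.7% ± 27.3 with pSTAT3, against 72.2% ± 16.0 of all protein-coding genes. With BCL9 it was 63.4% ± 23.2, against 50.9% ± 25.8 of all genes, although the median histone gene is 508 bp long and the median gene 27256.5 bp.

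Within 1 kb of the gene, both knockdown pSTAT3 libraries had a peak pair at 45 histone genes (background over all genes, 78.3%) and at least 2 control pSTAT3 libraries at 26 (65.1%). Both knockdown BCL9 libraries had 1 at 45 genes (54.4%) and at least 2 control BCL9 libraries at 35 (32.1%).

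Over windows of equal size, 1 kb on either side of the TSS, the histone genes stood above all genes on average with both antibodies and in each library except control pSTAT3 replicate 2, where 10.8% of histone genes and 14.2% of all genes had a peak pair. With pSTAT3 the share was 49.2% ± 30.0 of histone genes, against 34.3% ± 16.4 of all genes. With BCL9 it was 61.5% ± 23.6, against 20.5% ± 15.2, and with CTCF 64.6%, against 40.9%. In the 10 pSTAT3 and BCL9 libraries, 13 of the 65 genes had a peak pair near the start in at least 8 (background over all genes, 4.61%), and 5 had none (25.1%). Both knockdown pSTAT3 libraries covered 41 starts (33.3%) and at least 2 control pSTAT3 libraries 18 (20.3%). For BCL9 the counts were 42 in both knockdown libraries (15.9%) and 33 in at least 2 control libraries (7.1%).

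**Figure D1:**
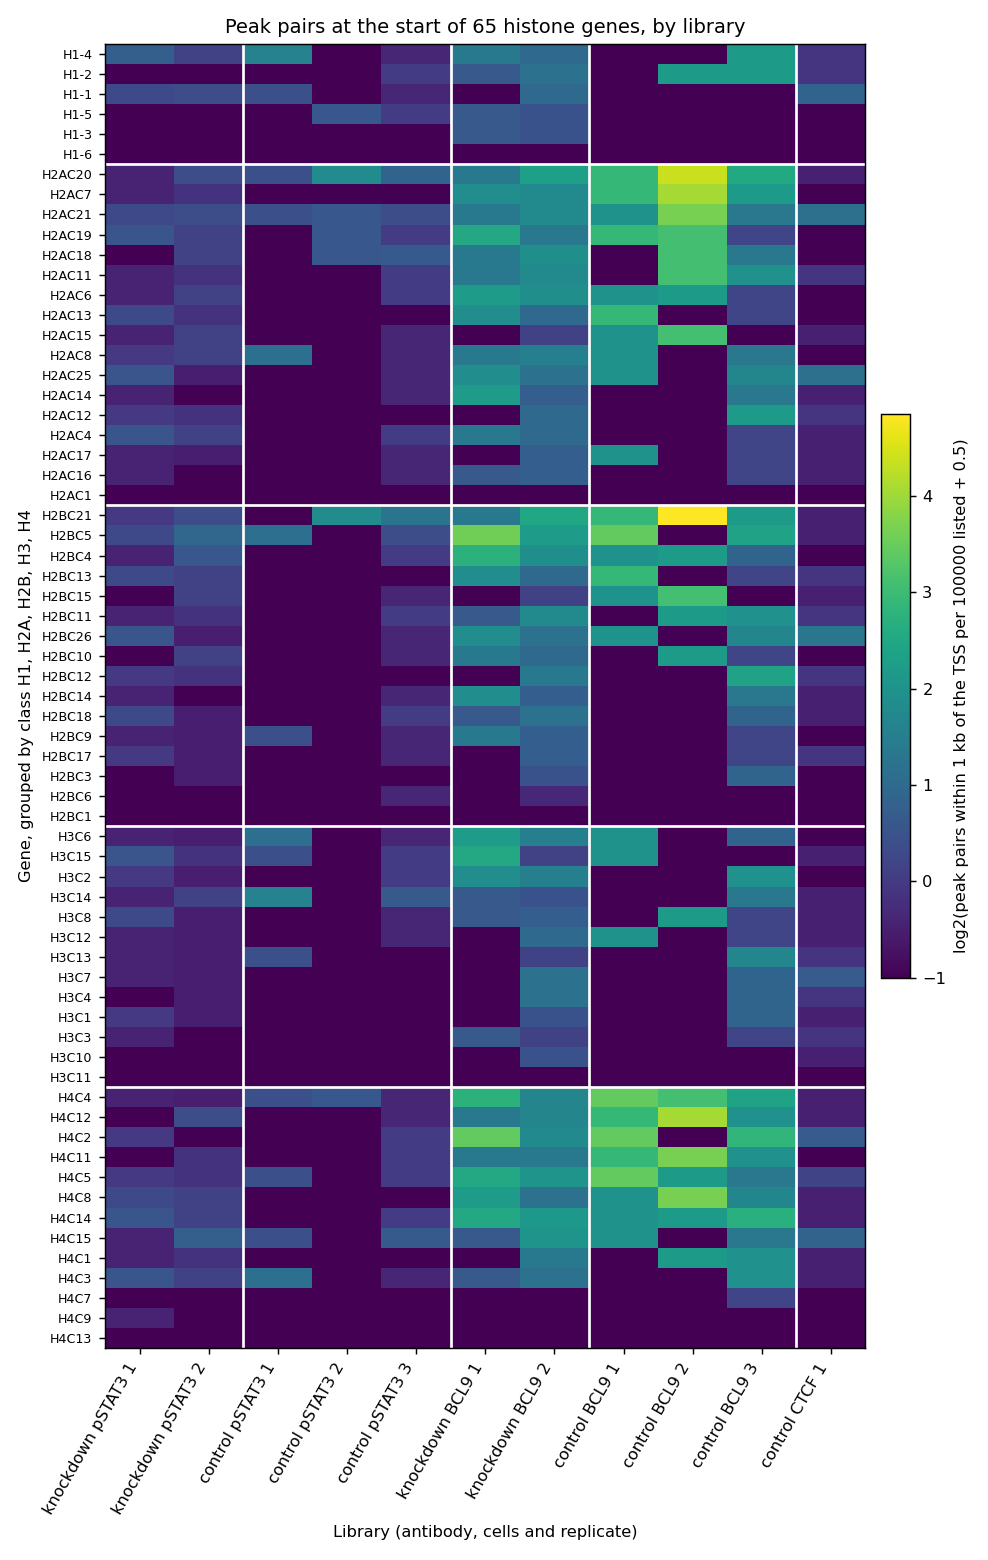
Peak pairs within 1 kb of the TSS of each of 65 histone genes (vertical axis, grouped by class and ordered by mean) in each of 11 libraries (horizontal axis), as log2 of peak pairs per 100000 listed plus 0.5. The brightest cells stand in the BCL9 columns, mainly at H2A, H2B and H4 genes, and 5 genes are at the floor in all 10 pSTAT3 and BCL9 libraries.

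The local background was set by the flanks 5 to 50 kb from each gene, outside all histone gene windows. Peak pairs per kb at the genes were 2.83 and 2.43 times the flank level in the knockdown pSTAT3 libraries and 2.70, 2.22 and 2.14 times in the control pSTAT3 libraries. With BCL9 they were 8.85 and 6.63 times the flanks in the knockdown libraries and 9.40, 18.3 and 7.79 times in the control libraries, and 1.55 times with CTCF. Over all protein-coding genes the ratio was 0.925 ± 0.0221 with pSTAT3, 0.921 ± 0.0297 with BCL9 and 0.818 with CTCF. Their flanks left out only the histone gene windows and so still held windows of other genes compared. The windows differ too, since the median histone gene is 508 bp long and the median gene 27256.5 bp. More of the histone windows therefore lies near a start. The 2 sets of ratios are for both reasons not alike, and windows of equal size at the TSS are compared below. Every pSTAT3 and BCL9 library thus had more peak pairs per kb at the histone genes than beside them, and every BCL9 ratio at the histone genes exceeded every pSTAT3 ratio. The flanks, 802.88 kb in all, held 10 peak pairs in control BCL9 replicate 1 and 6 in replicate 2, so these ratios are imprecise.

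At the TSS the contrast with the flanks was larger. The ratio was 5.71 and 4.91 in the knockdown pSTAT3 libraries, against 5.34, 2.71 and 4.28 in the control pSTAT3 libraries. It was 23.4 and 15.9 in the knockdown BCL9 libraries, against 26.3, 47.7 and 19.9 in the control BCL9 libraries. All genes had 2.99 ± 0.375 with pSTAT3 and 4.33 ± 0.759 with BCL9. The CTCF ratio at the histone starts, 2.31, lay below the 3.01 of all genes, and control pSTAT3 replicate 2, with 7 peak pairs at these starts, had 2.71 against 2.54. Knockdown and control ratios overlapped for both antibodies in both windows.

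**Figure D2:**
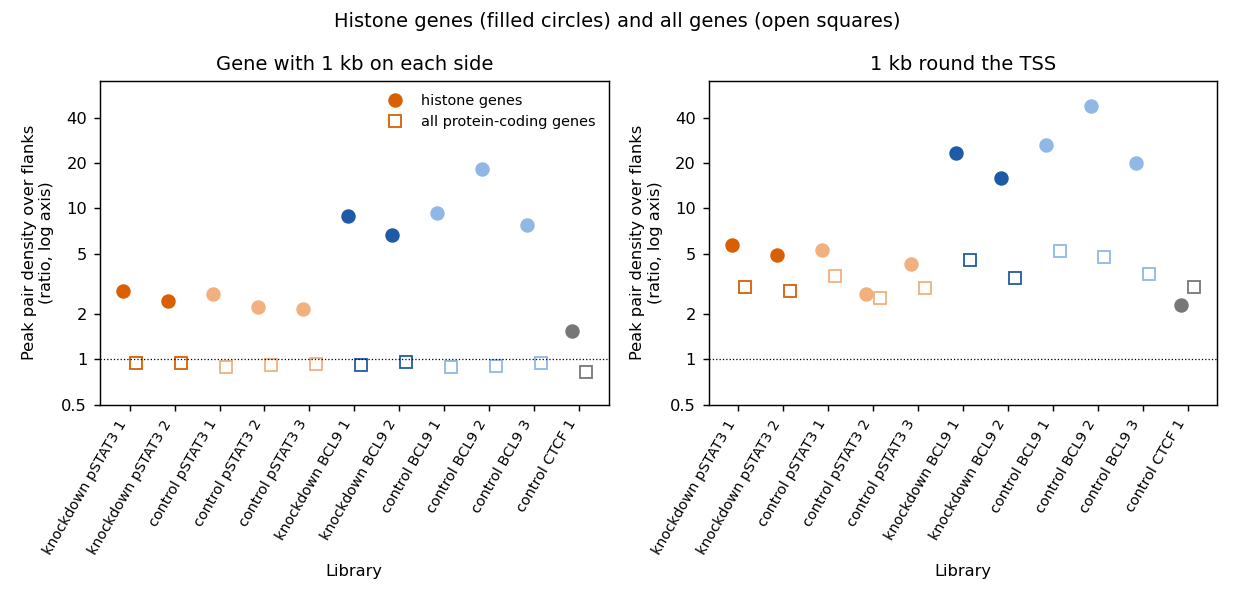
Peak pair density at the genes divided by the density in flanks 5 to 50 kb away (log axis) for each library, at the gene with 1 kb on each side (left) and 1 kb round the TSS (right). Filled circles are the 65 histone genes and open squares all protein-coding genes. On the left the flanks of all genes still hold windows of other genes compared, and the median gene is longer than the median histone gene. The BCL9 circles lie at 6.63 to 18.3 on the left and 15.9 to 47.7 on the right, above every pSTAT3 circle.

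Other protein-coding genes inside the histone clusters were few. Of 10, 6 have a start apart from every histone gene window. In the pSTAT3 libraries 1 of the 6 had a peak pair near its start in each library, and in the BCL9 libraries 0 to 3 of the 6. Most were starts of TRIM38, which encodes a ubiquitin ligase and had a peak pair in 4 of 5 libraries of each antibody, and of SLC17A genes for organic anion transporters. Of the 18 replication-independent histone genes named, 16 were in the annotation, and a peak pair lay near their start in 42.5% ± 23.6 with pSTAT3 and 27.5% ± 20.1 with BCL9. The leading members of that list were H3-3A, for the replacement histone H3.3, and H2AZ2, for H2A.Z, each in 8 of 10 libraries. Genes for histone transcription and mRNA processing (23 in the annotation) had 47.0% ± 17.8 and 29.6% ± 23.9, led by ZNF473, for a U7 snRNP-associated zinc-finger protein, in 9 of 10 libraries. Chaperone and S phase genes (17) had 43.5% ± 24.8 and 40% ± 24.4.

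Equal list lengths took away the difference in the number of listed peak pairs, but the lowest tag count kept then differed between lists. It was 22 and 24 in the knockdown and 9, 8 and 19 in the control pSTAT3 lists. In the BCL9 lists it was 10 and 12 in knockdown and 5, 9 and 10 in control. In the 24728 strongest peak pairs of each list, 0 and 0 histone gene starts had a peak pair in the knockdown pSTAT3 libraries, and 0, 2 and 0 in the control pSTAT3 libraries. In the BCL9 libraries 22 and 32 starts had 1 in knockdown cells and 19, 22 and 24 in control cells. Of all genes, 1.16 to 3.23% had a peak pair near the start in the pSTAT3 lists and 4.13 to 6.70% in the BCL9 lists. The histone genes were thus at 0 to 3.08% in the strongest pSTAT3 peak pairs and at 29.2 to 49.2% in the strongest BCL9 peak pairs. Peak pairs at the histone genes were of ordinary height, with a median of 4 to 7 tags in the pSTAT3 lists, against 5 to 7 tags for all listed peak pairs. In the BCL9 lists the medians were 6 to 10.5 tags, against 6 to 10.

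**Figure D3:**
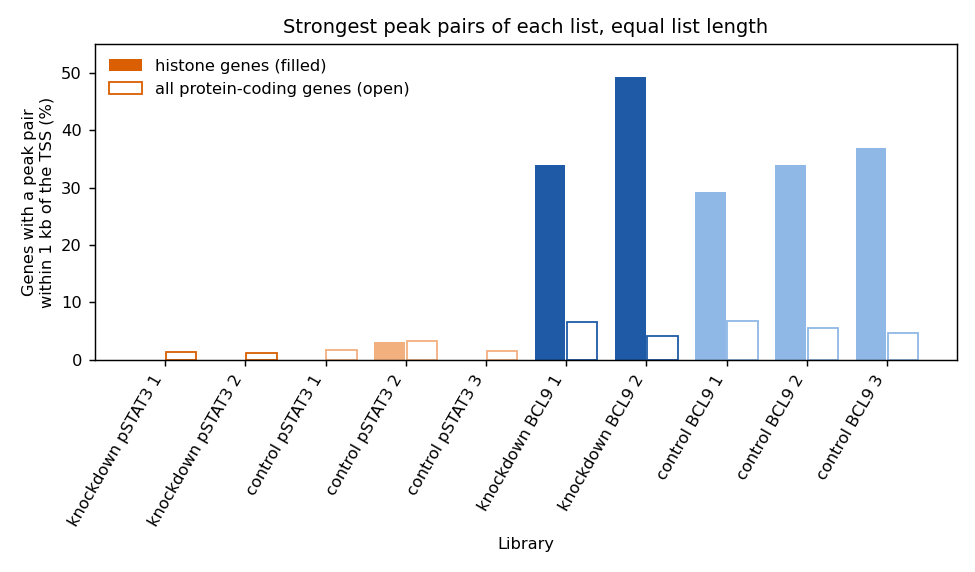
Share of genes with a peak pair within 1 kb of the TSS among the 24728 strongest peak pairs of each list, for 65 histone genes (filled bars) and all protein-coding genes (open bars). Of the 5 pSTAT3 bars of the histone genes 4 are at 0, and the BCL9 bars reach 29.2 to 49.2%.

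Gene by gene, the pSTAT3 and BCL9 libraries were compared with a two-sided exact permutation test (5 against 5 libraries, smallest p 0.00794) on peak pairs per 100000 listed within 1 kb of the gene. Of 60 histone genes tested, 56 were lower and 4 higher with pSTAT3, with a median difference of -1.69 peak pairs per 100000, against 0.11 over 19038 genes tested. An unadjusted p under 0.05 was reached by 19 histone genes, all lower with pSTAT3 (background 3.1%), and by 0 higher (background 6.7%). After Benjamini-Hochberg adjustment over all genes tested none passed 0.05 among the histone genes or among all genes, and the lowest adjusted p was 0.28. The groups did not overlap for 10 histone genes, all lower with pSTAT3 (background 1.26%), and for 0 higher (background 1.58%). Within the knockdown libraries alone 41 of 59 histone genes were lower with pSTAT3 without overlap (background 17.3%) and 0 higher (19.1%), and within the control libraries 11 of 57 (3.47%) and 0 (9.68%). The antibodies also differ in list length, and their part in this difference was not tested beyond the scaling and the equal lists.

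H2BC21 is an H2B gene on chromosome 1 (chr1:149856009-149858232, minus strand). It had 4 and 4 peak pairs in knockdown and 0, 3 and 8 in control pSTAT3 libraries, and 4 and 18 in knockdown and 2, 7 and 7 in control BCL9 libraries. Per 100000 listed these came to 1.39 ± 1.20 with pSTAT3 and 9.90 ± 10.3 with BCL9, and the groups did not overlap (exact p = 0.00794, adjusted 0.28). Its divergent neighbour H2AC20 (chr1:149858468-149858961, plus strand) had 1 and 6 against 1, 3 and 6 pSTAT3 peak pairs in knockdown and control libraries, and 2 and 15 against 2, 5 and 8 BCL9 peak pairs. The next gene, H2AC21 (chr1:149859019-149859515, minus strand), had 3 and 5 against 1, 3 and 4 with pSTAT3 and 3 and 13 against 2, 5 and 8 with BCL9. The windows of neighbours overlap, so the 65 genes make up 35 separate windows and share some of these peak pairs. H2AC21 and H2AC20 had a peak pair in all 10 libraries, and H2BC21 in 9. The BCL9 mean of H2BC21 rested on control replicate 2, the shortest list, and was 5.30 without it. For H2AC21 it was 4.84 without that library and 7.91 with it, and for H2AC20 4.72 and 7.82.

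Among the H4 genes, H4C4 (chr6:26188938-26189340, minus strand) was found in every library. It had 1 and 1 peak pair in knockdown and 1, 1 and 1 in control pSTAT3 libraries, and 6 and 10 in knockdown and 3, 2 and 7 in control BCL9 libraries. This gave 0.513 ± 0.384 per 100000 listed with pSTAT3 and 6.50 ± 2.91 with BCL9, a difference of -5.99 (exact p = 0.00794, adjusted 0.28). H4C5 (chr6:26204838-26205249, plus strand) had 2 and 3 against 1, 0 and 2 with pSTAT3 and 5 and 14 against 3, 1 and 3 with BCL9. H4C8, with 3 and 4 against 0, 1 and 1 for pSTAT3, had 5 and 7 against 1, 3 and 5 for BCL9. Both H4C5 and H4C8 separated the antibodies without overlap, with differences of -4.69 and -4.70.

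Of the H2A and H2B genes on chromosome 6, H2AC7 (chr6:26199012-26199521, minus strand) had the fewest pSTAT3 peak pairs of the 20 leading genes. It had 1 and 2 in knockdown and 0, 0 and 0 in control pSTAT3 libraries, and 3 and 12 in knockdown and 2, 4 and 6 in control BCL9 libraries (0.129 ± 0.186 and 6.78 ± 5.46 per 100000 listed). Without control replicate 2 the BCL9 mean of H2AC7 was 4.43. H2BC5 had 3 and 9 against 2, 0 and 7 with pSTAT3 and 11 and 16 against 3, 0 and 7 with BCL9, so its groups overlapped. H2AC6 (difference -5.04), H2BC4 (-4.78) and H2BC26 (-1.86) were also lower with pSTAT3 at unadjusted p of 0.0159, 0.00794 and 0.0476. For H2AC8 (-1.10), H2AC25 (-1.54), H2BC15 (-1.78) and H3C6 (-1.91) the unadjusted p lay between 0.0635 and 0.31. The BCL9 mean was 5.93 for H2AC6 and 2.64 for H2BC15, and without control replicate 2 it was 3.37 for H2AC6 and 1.28 for H2BC15. H2BC4 is annotated over 37610 bp, holds H4C3 and H1-6, and had 12 CTCF peak pairs over that length and 0 near its start.

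H2BC18, an H2B gene annotated over 29684 bp (chr1:149754245-149783928, minus strand), was the only 1 of the 20 leading genes with a higher mean for pSTAT3 than for BCL9. It had 12 and 16 against 3, 5 and 8 pSTAT3 peak pairs, 2 and 17 against 0, 1 and 5 BCL9 peak pairs, and 23 with CTCF. Per 100000 listed this was 3.17 ± 1.14 with pSTAT3 and 2.91 ± 1.95 with BCL9, a difference of 0.26 (exact p = 0.817, adjusted 1). Within 1 kb of its start the counts were 3 and 1 against 0, 0 and 2 with pSTAT3 and 1 and 6 against 0, 0 and 2 with BCL9. Most of its pSTAT3 peak pairs therefore lay away from the start. A single site held many of them, +24335 bp from the start, in an intron of H2BC18 and inside the annotated FCGR1A gene, which encodes an Fc receptor. Its central 100 bases are shown on the plus strand because this was the strongest site, with capitals on an AP-1 site and a CCAAT box read on the other strand, which share a base.
H2BC18 site, chr1:149759543-149759642: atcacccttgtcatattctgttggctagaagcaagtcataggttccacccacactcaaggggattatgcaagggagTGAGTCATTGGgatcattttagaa

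This site was found in 9 of 10 libraries. It had 77 and 281 tags in the knockdown and 42, 120 and 108 tags in the control pSTAT3 libraries. It had 7 and 23 tags in the knockdown and 0, 9 and 32 tags in the control BCL9 libraries, and 2 CTCF peak pairs. No other site among the 8 leading ones had more tags with pSTAT3 than with BCL9. At the site centred -19 bp from the start of H4C4, found in all 10 libraries, the tags were 6 and 3 against 5, 7 and 6 with pSTAT3. With BCL9 they were 72 and 192 against 24, 18 and 79.

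Merging 100 bp windows round all pSTAT3 and BCL9 peak pairs gave 392 sites at the histone genes, of which 237 were found in 1 library and 28 in at least 5. Of these 28, 21 were centred within 500 bp of a start and 10 held a CTCF peak pair. Found in at least 2 libraries of a group were 25 sites for knockdown and 14 for control pSTAT3, and 49 for knockdown and 24 for control BCL9. No site was in at least 3 pSTAT3 and 0 BCL9 libraries, and 7 sites were in at least 3 BCL9 and 0 pSTAT3 libraries. These site counts are given without the same counts over all genes, so they do not set the histone genes apart. The windows reach 1 kb from genes with a median length of 508 bp, which by itself keeps many sites near a start. The next sites after H4C4 and H2BC18 were +9 bp from the start of H4C5 and +143 bp from that of H2AC19 (9 libraries each). Those at H4C14 (-159 bp), H2BC4 (+789 bp), H2BC21 (+73 bp) and H4C8 (+167 bp) were each in 7. The sites at H2AC19, H2BC21 and H4C8 lie in coding sequence, that of H4C5 in its 5′ untranslated region, that of H2BC4 in an intron, and those of H4C4 and H4C14 upstream.

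Some members on chromosome 1 lie in an inverted repeat, and those with identical sequence cannot be told apart by their reads. With 1 kb on each side, H4C14 and H4C15 (9119 bp) and also H3C14 and H3C15 are 100% identical, and the starts of H2AC18 and H2AC19 are 91.3% identical over 2001 bp after alignment. The H4C14 site, with 328 tags in 7 libraries, falls within 17 bp of the mirrored place of an H4C15 site with 96 tags in 5 libraries. The H2AC18 and H2AC19 sites, with 155 and 141 tags, fall within 18 bp of each other in the same way. H4C14 had 8 and 16 against 1, 1 and 11 BCL9 peak pairs, and H4C15 had 3 and 15 against 2, 0 and 4. H2AC18 had 2 and 13 against 0, 2 and 5, and H2AC19 had 6 and 7 against 2, 2 and 1. The values of these genes are uncertain singly, and the sources used here do not say how reads with several matches were placed.

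The histone classes were compared as a description, without a test. With pSTAT3 the means within 1 kb of the TSS ran from 0.120 ± 0.0829 peak pairs per kb per 100000 listed for H3 genes to 0.170 ± 0.0580 for H2A genes, within the spread of the libraries. In the same windows H4 genes had 1.69 ± 0.535 BCL9 peak pairs per kb per 100000 listed, H2A genes 1.33 ± 0.533 and H2B genes 1.10 ± 0.252 (SD, n = 5 libraries). H3 genes had 0.470 ± 0.195 and H1 genes 0.398 ± 0.255. H4, H2A and H2B overlapped one another, as did H3 and H1. Every BCL9 library had a higher density at H4, H2A and H2B genes than any library had at H1 or H3 genes.

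**Figure D4:**
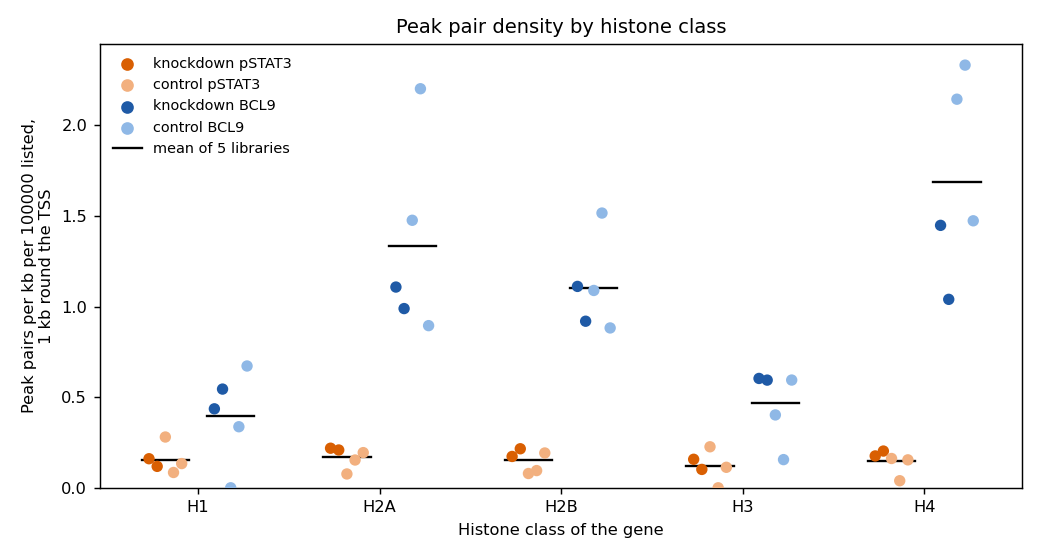
Peak pairs per kb per 100000 listed within 1 kb of the TSS by histone class, with 1 point per library and a line at the mean of 5 libraries. The pSTAT3 means lie between 0.120 and 0.170, and the BCL9 means are 1.69 for H4, 1.33 for H2A, 1.10 for H2B, 0.470 for H3 and 0.398 for H1.

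By position, the 11 genes at chr1:149754245-149859515 had the highest mean densities at the TSS, 0.328 ± 0.0339 with pSTAT3 and 1.59 ± 0.636 with BCL9. The 31 genes of the largest chromosome 6 cluster had 0.135 ± 0.0708 and 1.05 ± 0.158, and the 16 at chr6:27775257-27861669 had 0.0724 ± 0.0493 and 0.917 ± 0.514. Every pSTAT3 library except knockdown replicate 1 had its highest density in that chromosome 1 cluster, and knockdown replicate 1 had it at the 2 genes of chr1:228622478-228650805. The flanks of the chromosome 1 cluster were also the highest of the 5 clusters, at 0.0474 ± 0.00371 with pSTAT3 and 0.0677 ± 0.0227 with BCL9, against 0.0311 ± 0.00754 and 0.0414 ± 0.0170 in the largest cluster. The part of gene copy number in these differences was not tested.

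Round the start, the pSTAT3 density was highest from +100 to +200 bp at 0.338 ± 0.0887 peak pairs per kb per 100000 listed, against 0.136 ± 0.112 from -1000 to -900 bp. BCL9 peak pairs were densest from 0 to +100 bp (3.06 ± 0.722, 103 peak pairs) and from +100 to +200 bp (3.01 ± 1.58). Between -100 bp and the start the density was 2.66 ± 1.05, and from -1000 to -900 bp it was 0.585 ± 0.181. Between -400 and +200 bp lay 43.6% of the pSTAT3, 52.3% of the BCL9 and 27.4% of the CTCF peak pairs found within 1 kb, against 48.2%, 48.6% and 46.6% at all genes. A peak pair within reach of several starts was counted at each of them. From -400 to -300 bp the BCL9 density was 2.61 ± 1.35 at genes standing head to head and 0.259 ± 0.263 at single genes.

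**Figure D5:**
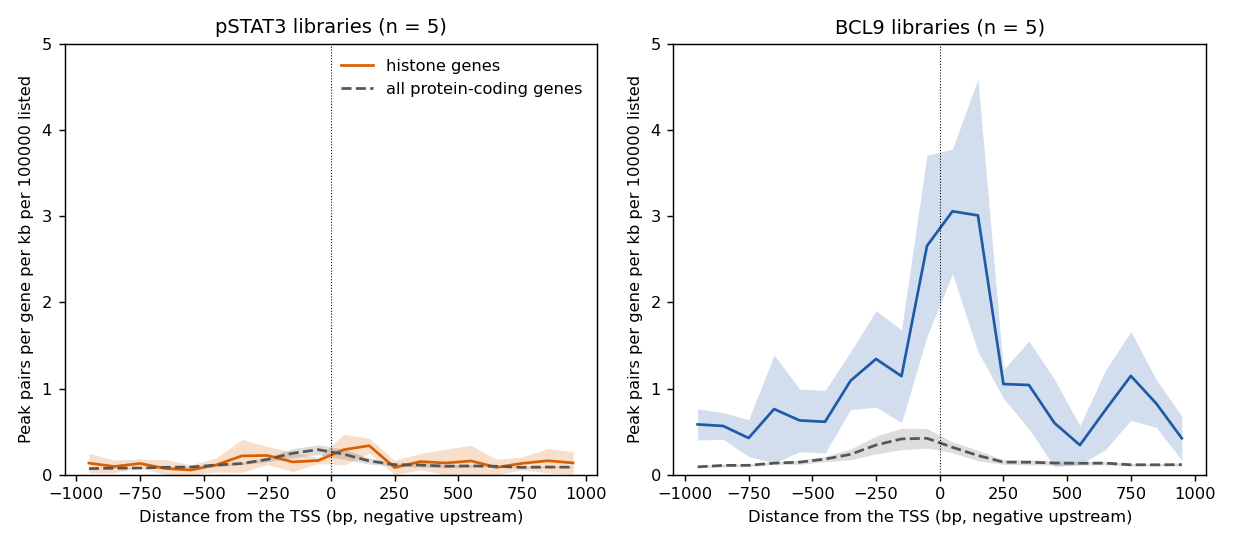
Peak pairs per gene per kb per 100000 listed by distance from the TSS in 100 bp steps, for pSTAT3 (left) and BCL9 (right). Lines are means of 5 libraries and bands 1 SD, solid for 65 histone genes and dashed for all protein-coding genes. The highest pSTAT3 value is 0.338, and the BCL9 line reaches 3.06 just past the start.

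There are 12 head-to-head pairs, 10 of them of an H2A and an H2B gene, with 170 to 979 bp between their starts. H2BC17 stands in 2 of them, with H3C12 and with H2AC17, and the DNA between those starts overlaps. The same peak pair therefore counted for both in knockdown BCL9 replicate 2 and in control BCL9 replicate 3. Between those starts a peak pair lay in 1 and 3 of the 12 pairs in the knockdown pSTAT3 libraries, and in 0, 1 and 0 in the control pSTAT3 libraries. In the BCL9 libraries it was 3 and 7 in knockdown and 0, 0 and 5 in control. In at least 1 of the 10 libraries a peak pair lay there in 10 of the 12 pairs. The density between the starts was 0.111 ± 0.130 peak pairs per kb per 100000 listed with pSTAT3 and 0.603 ± 0.563 with BCL9, against 0.151 ± 0.0471 and 1.09 ± 0.228 within 1 kb of all histone gene starts, and overlapped it for both antibodies. Genes in such pairs and single genes had similar BCL9 densities at the TSS, 1.15 ± 0.437 and 1.10 ± 0.217, and pSTAT3 densities of 0.145 ± 0.0520 and 0.157 ± 0.0541. The pair of H2BC21 and H2AC20 had a peak pair between the starts in 2 of 10 libraries, both of them pSTAT3 libraries.

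The sequence under the peak pairs at histone genes was compared with that under whole lists, in windows of 100 bp. With pSTAT3, 9.47% ± 8.20 of windows at histone genes held an AP-1 site, against 17.6% ± 4.08 of the lists, and control replicate 2 alone lay above its list, with 4 of 17 windows. With BCL9 it was 0.686% ± 0.743, against 11.3% ± 1.95. STAT sites stood in 2.06% ± 2.34 of pSTAT3 windows at histone genes, against 3.46% ± 0.0860, and in 1.06% ± 1.07 of BCL9 windows, against 3.23% ± 0.0692. The BCL9 share with an AP-1 site at histone genes was lower than that of its list in each of the 5 libraries, between 0 and 1.80%. The TATA box stood in 6.61% ± 1.04 of pSTAT3 windows at histone genes, against 7.11% ± 0.809 of the lists, and in 10.2% ± 2.67 of BCL9 windows, against 6.35% ± 1.14, higher than the list in each of the 5 BCL9 libraries. The CCAAT box stood in 18.7% ± 9.64 of pSTAT3 windows, against 13.1% ± 0.399, with control replicate 3 below its list. That mean leaned on control replicate 2, with 6 of 17 windows (35.3%), and knockdown replicate 2 had 13.3%, as did its list. Of those 17 peak pairs 5 lay at the intronic H2BC18 site, far from the start, which holds both an AP-1 site and a CCAAT box. In control pSTAT3 replicate 1 it was 3 of 30. The pSTAT3 shares for AP-1 and CCAAT therefore do not describe promoters alone, and the shares without this site were not computed. With BCL9 the CCAAT box stood in 10.7% ± 3.44, against 13.5% ± 0.184. Windows of neighbouring peak pairs overlap and are not independent.

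BCL9 knockdown was compared with control in each antibody by an exact permutation test on peak pairs per 100000 listed (2 against 3 libraries, 10 assignments), whose smallest two-sided p is 0.1. A gene was therefore only described as without overlap. With BCL9, 6 of 59 histone genes had both knockdown libraries above all controls (background 17%) and 5 had both below (background 3.06%). The 5 were H2AC21, H2AC20, H2AC7, H4C12 and H4C11, with differences between -7.58 and -5.40 peak pairs per 100000. H4C12 had 2 and 9 against 2, 4 and 5 peak pairs and H4C11 2 and 7 against 2, 3 and 5. For all 5 the counts overlapped between knockdown and control before division by the list length. The median difference was 0.144 over the histone genes and 0.299 over 17466 genes tested, with 30 histone genes higher and 29 lower.

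With pSTAT3, 11 of 57 histone genes had both knockdown libraries above all controls (background 13.1%), among them H4C14 (difference 0.727) and H2AC7 (0.323). H4C4 alone had both below (background 5.45%), with 1 peak pair in every library and a difference of -0.486. All genes tested had a median difference of 0.105 and the histone genes 0.151, with 44 higher and 13 lower. The lowest adjusted p over all genes was 0.969 with pSTAT3 and 0.805 with BCL9. Leaving out the control libraries made from a single run, a choice made after the values were seen, gave 18 higher (18.8% of all genes tested) and 5 lower (12.5%) with pSTAT3, and 14 higher (21%) and 10 lower (6.1%) with BCL9. Lists of equal length gave 0 higher (5.39%) and 0 lower (4.87%) with pSTAT3, and 8 higher (3.99%) and 0 lower (2.75%) with BCL9.

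No peak pair lay within 1 kb of 5 members in any pSTAT3 or BCL9 library (7.69%, background 5.27%). They are the testis genes H2AC1, H2BC1 and H1-6, which encode histones of male germ cells, and the neighbours H3C11 and H4C13 at chr6:27839623-27840124 and chr6:27840926-27841312. All 5 also had 0 in the CTCF library. A further 3 genes, H3C10, H4C7 and H4C9, had peak pairs in 1 of the 10 libraries. At the other end 19 genes (29.2%) had peak pairs in at least 8 libraries within 1 kb of the gene, a smaller share than the 39.5% of all genes. Of them 5 had peak pairs in all 10, namely H2AC21, H2AC20, H2BC4, H4C4 and H2AC19, without a share over all genes beside this count. These windows grow with the annotated gene, and 12 members are longer than 5 kb. H2BC15, annotated over 17165 bp, had peak pairs in 8 libraries within 1 kb of the gene and in 5 within 1 kb of the TSS.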

How the data were processed

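Per the labels, the authors' lists hold 1 peak pair per line on hg19 with a signal that was deposited by the authors. Each signal divided by its library's step gave a whole tag count. According to the processing notes of the submitters bcl2fastq was used, and the sources used here name no aligner. The midpoint of each peak pair on the autosomes and X was placed within 1 kb of a gene of GENCODE v44 lifted to GRCh37, and counted per 100000 listed peak pairs. Flanks lay 5 to 50 kb away, outside histone windows. Exact permutation tests over libraries were adjusted by Benjamini-Hochberg over all genes tested. The histone genes, lists, motifs and tests were chosen with earlier results of these data known. The genes named were the 20 found in most of the 10 pSTAT3 and BCL9 libraries, members found in none, members of counts of 5 or fewer, the 8 sites found in most libraries, and up to 4 genes per other list found in at least 8 libraries. The TSS window, the older symbols and the omission of single-run controls were added after seeing the data. The code was tested on simulated data. The scripts ran under Python 3.11.15 with pandas 2.3.3, numpy 2.4.6, matplotlib 3.10.9 and scipy 1.17.1. Shares of genes carry counting error only in their intervals.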

Additional observations from a re-analysis of the deposited data

Results flagged for a closer look

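H2AC7 had differences of opposite sign between BCL9 knockdown and control with the 2 antibodies. The difference was 0.323 peak pairs per 100000 listed with pSTAT3, where the 2 knockdown libraries had 1 and 2 peak pairs and the control libraries 0, and -5.71 with BCL9, where both knockdown libraries lay below all 3 controls. The counts with BCL9, 3 and 12 in knockdown and 2, 4 and 6 in control libraries, overlapped before division by the list length. The exact permutation test gave a two-sided p of 0.1 with pSTAT3 and 0.2 with BCL9. The smallest p this test can give with 2 against 3 libraries is 0.1, so it cannot decide on either difference. With lists of equal length or a minimum of 9 tags no histone gene was without overlap higher with pSTAT3 or lower with BCL9. Whether the knockdown difference itself differed between the 2 antibodies was not tested.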

How the results depend on the processing

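The minimum of 9 tags moved 16 results and equal list length 15. With lists of equal length the share of histone genes with a peak pair was 1.54% (knockdown pSTAT3), 3.08% (control pSTAT3), 45.4% (knockdown BCL9) and 7.69% (CTCF). The density over the flanks was then 6.53 (control pSTAT3), 89.6 (knockdown BCL9) and 22.1 (control BCL9), and could not be given for knockdown pSTAT3, whose flanks held 0 peak pairs. Genes without overlap between knockdown and control were 0 higher and 0 lower with pSTAT3 (5.39% and 4.87% of all genes tested) and 0 lower with BCL9 (2.75%), 1 gene was higher with pSTAT3 than with BCL9 at unadjusted p under 0.05 (5.83%), and recurrent sites were 1, 1, 15 and 13 in knockdown pSTAT3, control pSTAT3, knockdown BCL9 and control BCL9. With a minimum of 9 tags the shares were 12.3%, 9.74% and 56.2% in knockdown pSTAT3, control pSTAT3 and knockdown BCL9, and 18.5% with CTCF, and the densities 3.16, 7.33 and 31.0. Genes without overlap were 0 higher and 0 lower with pSTAT3 (14.8% and 4.28% of all genes) and 13 higher and 0 lower with BCL9 (13.6% and 1.69%), 11 were lower with pSTAT3 than with BCL9 (3.46%), and recurrent sites were 1, 3, 22 and 13.

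With the coding sequence in place of the gene, the knockdown pSTAT3 share was 73.1% and the densities 3.95 (knockdown pSTAT3), 3.47 (control pSTAT3), 13.1 (knockdown BCL9), 19.6 (control BCL9) and 2.14 (CTCF). With 1 kb round the TSS, chosen after seeing the data, they were 73.1%, 5.31, 4.11, 19.7, 31.3 and 2.31, and 2 genes were without overlap lower with pSTAT3 (2.98%). A reach of 500 bp gave 69.2% and 7 genes higher (13.1%) for knockdown pSTAT3, and flanks of 5 to 20 kb a density of 2.70 for control pSTAT3. Tags scaled to the listed tags, in place of peak pairs, gave 2 genes lower with each antibody in knockdown cells (5.31% of all genes with pSTAT3, 2.58% with BCL9), and 1 gene higher with pSTAT3 than with BCL9 (7.25%). Without the single-run controls, also chosen after seeing the data, 18 genes were higher and 5 lower with pSTAT3 (18.8% and 12.5% of all genes), 14 higher and 10 lower with BCL9 (21% and 6.1%), and recurrent control sites were 7 and 15. Correlations between libraries of the same replicate number were -0.0478 to 0.108, which cannot settle whether the numbers pair the libraries. With the replicate block 24 genes were higher and 3 lower with pSTAT3 (35.7% and 14.2% of all genes), 20 higher and 10 lower with BCL9 (35.9% and 8.27%), and 0 were lower with pSTAT3 than with BCL9, where the smallest p is 0.0625. Genes under current symbols only changed none of 10 results by more than the spread. The causes of these moves were not tested.

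Leaving out 1 library gave shares of 76.9 to 80% (knockdown pSTAT3), 26.9 to 51.5% (control pSTAT3), 69.2 to 89.2% (knockdown BCL9) and 39.2 to 60.8% (control BCL9), and densities of 2.43 to 2.83, 2.18 to 2.46, 6.63 to 8.85 and 8.59 to 13.8. Genes without overlap were 13 to 21 higher and 1 to 5 lower with pSTAT3 (18.8 to 30.4% and 9.87 to 12.5% of all genes), and 8 to 16 higher and 6 to 10 lower with BCL9 (20.2 to 42.5% and 5.45 to 7.15%). Lower with pSTAT3 than with BCL9 were 11 to 30 (1.73 to 4.37%), and higher 0 (4.44 to 9.61%). Recurrent control sites were 2 to 9 with pSTAT3 and 8 to 15 with BCL9, and knockdown sites 0, since 1 library cannot recur.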
